A study of Mus musculus with 12 samples.

Results

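Bead-bound and supernatant RNA of the control hypothalamus were compared in 6 of the 12 libraries of the study. The 6 were chosen by their titles, as Ctrl bead 1 to 3 and Ctrl sup 1 to 3, and each bead library was paired with the supernatant library of the same pool of mice. All mice were adults. The control (Ctrl) mice carried LepRb-Cre/Cre, which expresses Cre recombinase from the gene of the long leptin receptor, together with R26-GFP:L10a/GFP:L10a, a ribosomal protein L10a fused to green fluorescent protein at the Rosa26 locus that Cre switches on. The other 6 libraries came from Stat3KO mice, with LepRb-Cre/Cre and R26-GFP:L10a/GFP:L10a as in Ctrl and Stat3-flox/flox in addition. The labels name no treatment and no sex for either genotype. For each pool, blocks of ventral diencephalon with edges of 3 mm, cut behind the optic chiasm at the middle of the light phase, were combined from 5 to 8 mice. RNA on the tagged ribosomes was pulled down on beads, and RNA left after the pull-down is the supernatant. Once Cre has acted the tag stays on, so a cell that made Cre only earlier in life is tagged as well.

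Leptin is a hormone of fat tissue that reports energy stores to the brain. Its long receptor, LepRb, works through the kinase JAK2 and the transcription factor STAT3, and SOCS3, which STAT3 induces, feeds back on the receptor. LepRb neurons lie in the arcuate, dorsomedial, ventromedial, premammillary and lateral hypothalamus and in the midbrain; in the arcuate nucleus they include the neurons that make POMC and CART peptides, which reduce feeding, and those that make AgRP and NPY, which drive it. The pull-down of tagged ribosomes reads the RNA that these cells translate, and the supernatant holds RNA of all cells of the block, LepRb cells included, so that the ratio of bead to supernatant is a measure of enrichment and not of expression in LepRb cells alone.

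The tag and the receptor were enriched on beads in every pool. The transcript of the tag, Gfp_L10a, stood at 100.1, 165 and 129.6 CPM on beads and 11.6, 9.83 and 11.1 CPM in the supernatant. Every bead library was above every supernatant library (log2 fold change 3.59, SE 0.15, edgeR adjusted p = 2.77e-07). Cre stood at 2.1, 3.21 and 2.16 CPM on beads and 0.309, 0.228 and 0.623 CPM in the supernatant (log2 fold change 2.68, SE 0.41, edgeR adjusted p = 3.35e-04; log2 fold change 3.35 without pool 3). Lepr, the leptin receptor gene (chromosome 4, 101717404 to 101815352 in GRCm38), was at 6.00, 13 and 13.1 CPM on beads and 1.9, 2.13 and 2.18 CPM in the supernatant, so the bead level of pool 1 was less than that of pools 2 and 3 while the groups did not overlap (5.11-fold; log2 fold change 2.35, SE 0.20, edgeR adjusted p = 9.52e-06). CPM is the count of a gene relative to the total of its library after scaling with TMM factors, which correct for differences in composition between libraries. The hypothalamic factor Nkx2-1 was counted in all 6 libraries, at 35.6, 34.3 and 36.1 CPM on beads and 17.8, 17.4 and 16.9 CPM in the supernatant.

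Total counts were 20743217 to 40433256 per library. In the edgeR quasi-likelihood fit with the pool as a block, 18036 genes were tested, of which 5307 (29.4%) were higher and 5237 (29.0%) lower on beads at an adjusted p under 0.05. With a change of at least 2-fold required as well, 672 genes (3.73%) were higher and 2167 (12.0%) lower. Of all calls, 50.3% were higher on beads; scaled by library totals alone this share was 36.4%, with 3806 genes higher and 6641 lower, and the median log2 fold change over all genes moved from -0.013 to -0.16. All directions below are relative to the TMM scaling. Of the 10544 calls, 10484 (99.4%) had the same sign in each of the 3 pools. The plot of all genes places 119 genes at 4-fold or more above the supernatant and 608 at 4-fold or more below it.

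**Figure D1:**
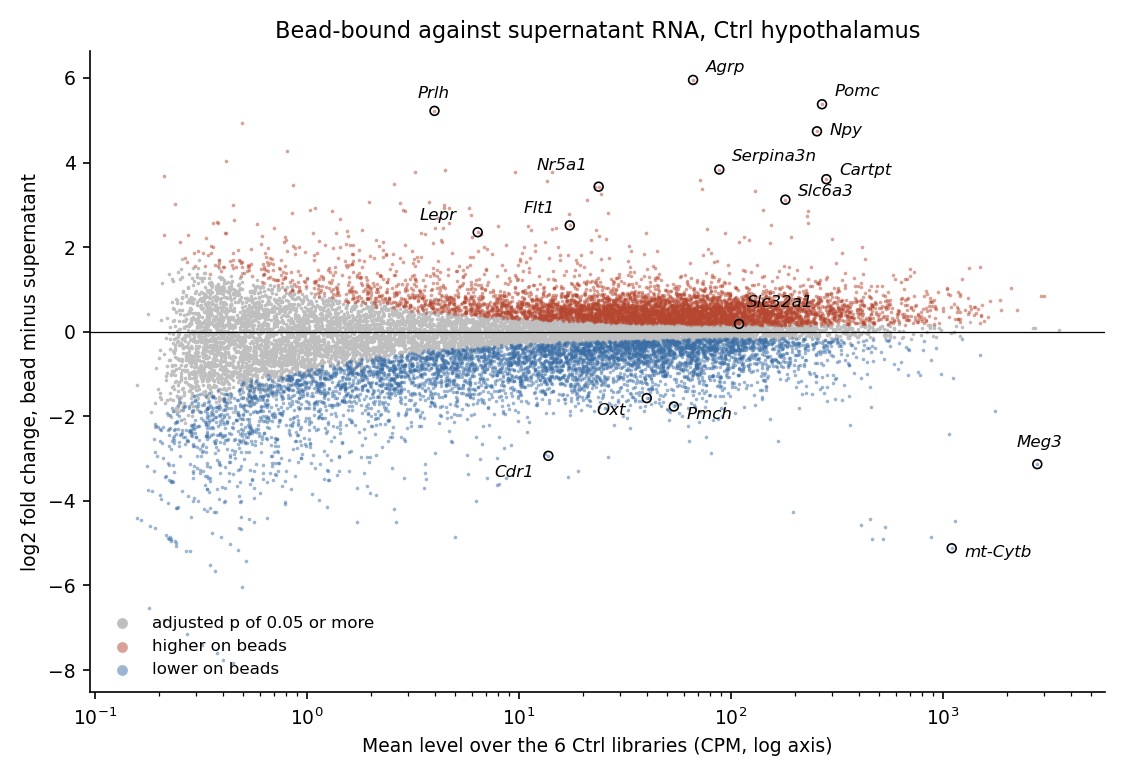
Each point is 1 of the genes tested in Ctrl, by its mean level over the 6 libraries (CPM, log axis) and its log2 fold change of bead over supernatant; red and blue points passed the edgeR test at an adjusted p under 0.05 and grey points did not, and circled genes are named. Agrp stands highest and mt-Cytb lowest of the genes named.

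One library stands apart. Ctrl bead pool 1 held 0.166% of its counts in mitochondrially encoded genes, against 0.018% and 0.0208% in bead pools 2 and 3 and 1.05% to 1.23% in the supernatants. Its summed level of the 15 oligodendrocyte markers, 3507 CPM, also lay above those of bead pools 2 and 3 (2000.0 and 2513 CPM) and below the supernatants (6286 to 8068 CPM). Without pool 1 the counts were 5402 genes higher and 5308 lower, with 731 and 2363 at 2-fold or more. Values without pool 1 are given below where a list's count or a named gene's fold moves by more than 1.5 times, and beside some other results.

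For 4 of the genes that stood out on beads, the 250 bases before the RefSeq start of transcription (GRCm38.p6) are shown, with no annotated GENCODE exon in any window. Pomc and Npy are shown because they stand among the most enriched and most abundant genes on beads, Ucn because it has a large ratio and its window holds TGACG, a site that CREB-family factors bind, and Serpina3n because it is known as a leptin-responsive gene and its ratio differed between genotypes. Capitals mark matches on either strand to TATAAA (the TATA box) or TGACG.
Pomc (chr12:3954695-3954944, + strand): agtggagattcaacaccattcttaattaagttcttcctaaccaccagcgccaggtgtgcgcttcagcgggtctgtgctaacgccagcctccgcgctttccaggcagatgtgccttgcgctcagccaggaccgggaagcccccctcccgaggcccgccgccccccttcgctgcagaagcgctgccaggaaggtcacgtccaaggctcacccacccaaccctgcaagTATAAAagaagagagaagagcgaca
Npy (chr6:49822460-49822709, + strand): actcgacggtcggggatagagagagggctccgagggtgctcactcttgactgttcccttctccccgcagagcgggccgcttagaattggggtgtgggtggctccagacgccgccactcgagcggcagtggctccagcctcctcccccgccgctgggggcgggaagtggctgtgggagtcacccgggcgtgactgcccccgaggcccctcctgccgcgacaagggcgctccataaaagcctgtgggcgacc
Ucn (chr5:31138896-31139145, - strand): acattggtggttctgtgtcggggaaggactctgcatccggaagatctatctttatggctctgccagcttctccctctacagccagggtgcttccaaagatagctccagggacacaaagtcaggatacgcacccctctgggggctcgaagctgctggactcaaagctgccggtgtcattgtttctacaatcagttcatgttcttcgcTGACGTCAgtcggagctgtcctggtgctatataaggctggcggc
Serpina3n (chr12:104406458-104406707, + strand): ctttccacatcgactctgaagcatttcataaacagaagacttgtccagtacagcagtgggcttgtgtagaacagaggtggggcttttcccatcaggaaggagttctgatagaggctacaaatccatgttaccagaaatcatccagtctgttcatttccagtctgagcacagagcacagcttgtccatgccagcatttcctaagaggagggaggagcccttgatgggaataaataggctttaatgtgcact

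In the Pomc window TATAAA begins 25 bases before the start. The Ucn window holds TGACG on both strands in 1 place, where the 2 matches overlap. The palindrome TTCNNNGAA, a form that STAT factors bind, is in none of these 4 windows. Among all 32851 RefSeq windows of this length, 12.4% hold TATAAA, 17.8% hold TGACG and 7.02% hold TTCNNNGAA, each on either strand. In the 16224 windows of genes tested here the shares were 7.17%, 24.3% and 5.87%. In the 101 windows of the 85 genes with an entry that were at least 4-fold higher on beads, they were 18.8%, 19.8% and 2.97%. A match is a run of letters in a window and is not evidence that a factor binds there.

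The peptide genes of the arcuate nucleus had a higher median log2 fold change than any other list of peptides, receptors or transcription factors. Agrp, which encodes the melanocortin antagonist AgRP (chromosome 8, 105566698 to 105637393), was at 133, 139.6 and 119 CPM on beads and 1.46, 2.69 and 1.99 CPM in the supernatant. The lowest bead library was 44.3 times the highest supernatant library, and the fold was 62 (log2 fold change 5.95, SE 0.13, edgeR adjusted p = 3.98e-09). Pomc, the precursor of the melanocortins (chromosome 12, 3954951 to 3960642), was at 532, 577 and 465 CPM on beads and 11, 14.7 and 12 CPM in the supernatant (41.6-fold; log2 fold change 5.38, SE 0.090, edgeR adjusted p = 7.07e-10). Npy, the gene of neuropeptide Y (chromosome 6, 49822710 to 49829507), was at 513, 503 and 455 CPM on beads and 18.3, 18.8 and 17.9 CPM in the supernatant (26.7-fold; log2 fold change 4.74, SE 0.074, edgeR adjusted p = 6.89e-10). Cartpt, which encodes the CART peptide (chromosome 13, 99898489 to 99901091), was at 579, 429.6 and 553 CPM on beads and 47, 38.4 and 42.2 CPM in the supernatant (12.2-fold; log2 fold change 3.61, SE 0.075, edgeR adjusted p = 3.61e-09). For these 4 genes the 3 bead libraries lay close together, pool 1 included, and were far from the supernatants in every pool. The GENCODE model of Agrp overlaps genes of both strands, among them Ripor1 and Ctcf, and without a strand-specific kit reads of the strands cannot be told apart. Ghrh, the releasing hormone of growth hormone, was at 20.4, 27 and 27.9 CPM on beads and 2.17, 2.13 and 2.09 CPM in the supernatant, and was 11.9-fold higher.

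All 12 tested members of the list of arcuate peptides were higher on beads, where 29.4% of all genes were, with a median log2 fold change of 2.64 against -0.013 over all genes. Without pool 1 all 12 were still called. In such bulk libraries, more cells of a type and more RNA per cell cannot be told apart. Kiss1, the 13th gene of the list, is not reported here. Behind the 5 genes above came Th, the rate-limiting enzyme of catecholamine synthesis, at 429, 436 and 356 CPM on beads and 62.5, 55.9 and 51.1 CPM in the supernatant (7.2-fold). Nts, the gene of neurotensin, stood at 97.4, 121 and 174 CPM on beads and 19.7, 26.2 and 25.8 CPM in the supernatant, with the highest bead level in pool 3 (5.38-fold). Gal, the galanin gene, was 3.73-fold and Pdyn, the dynorphin precursor, 3.08-fold higher. The smallest enrichments were those of Sst (somatostatin), at 261, 162 and 159.8 CPM on beads and 119, 105 and 111 CPM in the supernatant with a log2 fold change of 0.76, and of Tac2 (neurokinin B), at 32.1, 25.5 and 20.8 CPM on beads and 21.3, 19.2 and 19.5 CPM in the supernatant with 0.36. For Tac2 the bead level of pool 3 was lower than the supernatant level of pool 1, and the call was lost without pool 2 (edgeR adjusted p = 0.0619). Exon length was taken as that of all annotated exons of a gene merged, which can exceed the length of the transcript made. Levels per kilobase of exon thus compare genes only roughly. Among genes at least 4-fold enriched, they were highest on beads for Npy at 866 CPM per kb, Cartpt at 408 and Pomc at 398. Gpx3, a secreted glutathione peroxidase, followed at 271. Agrp, with the largest ratio of the 4 feeding peptides, was at 129 CPM per kb.

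**Figure D2:**
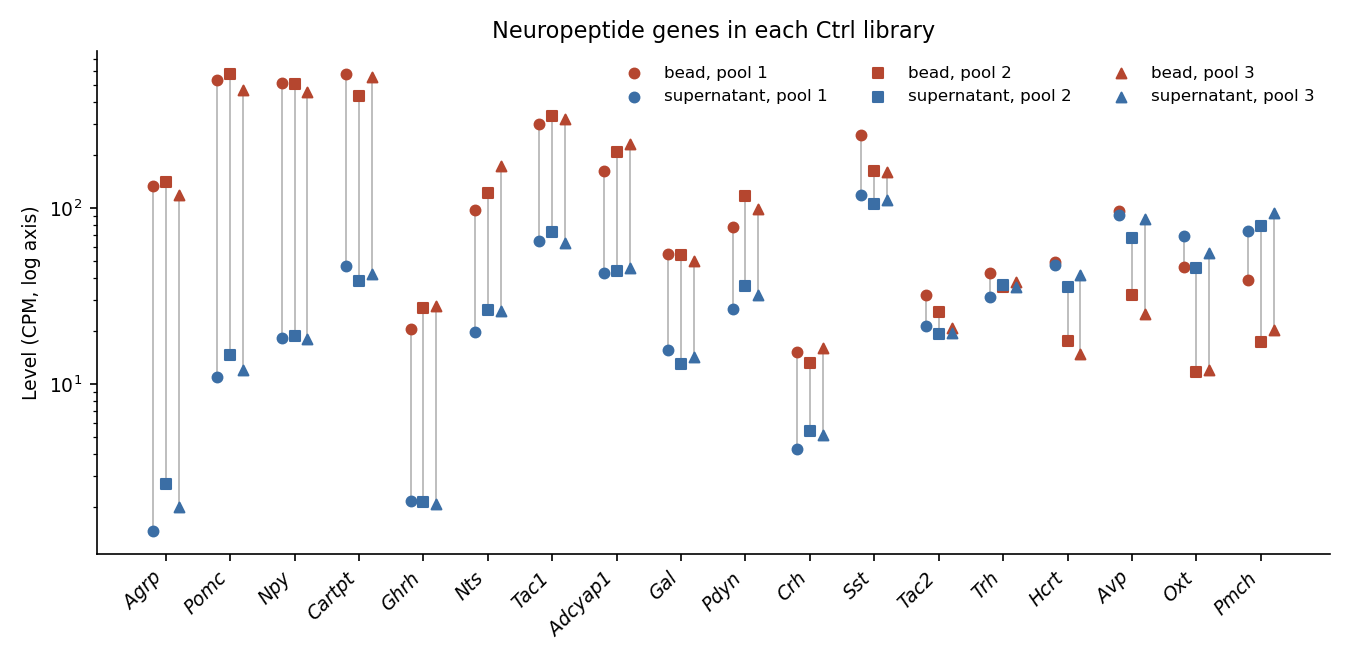
Level (CPM, log axis) of 18 neuropeptide genes in each Ctrl library, red on beads and blue in the supernatant, with a grey line joining the fractions of a pool and symbols for pools 1 to 3. Agrp, Pomc, Npy and Cartpt are far above the supernatant in every pool, whereas Oxt and Pmch are below it in every pool; for Hcrt and Avp the bead level of pool 1 is close to that of its supernatant.

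Peptides of the dorsomedial and lateral hypothalamus split into those above and those below the supernatant. Of 18 tested genes, 10 were higher and 4 lower (10 and 6 without pool 1), where 29.4% and 29.0% of all genes were. Prlh, which encodes prolactin-releasing peptide and was not on the list, had the third largest log2 fold change of the 20 top-ranked genes, after Agrp and Pomc, with 10.2, 7.32 and 5.78 CPM on beads and 0.309, 0.0507 and 0.264 CPM in the supernatant (37.3-fold; log2 fold change 5.22, SE 0.34, edgeR adjusted p = 2.33e-06). Tac1, the gene of substance P, was at 299.8, 334 and 319 CPM on beads and 65.2, 73.1 and 63.1 CPM in the supernatant (4.74-fold), and Adcyap1, the gene of PACAP, at 162, 208 and 232 CPM on beads and 42.6, 43.9 and 45.3 CPM in the supernatant (4.53-fold). Npw, which encodes neuropeptide W, was at 0.771, 1.25 and 0.852 CPM on beads and 0, 0 and 0.0719 CPM in the supernatant, too close to 0 in the supernatant for a fold to be given. Pmch, which encodes melanin-concentrating hormone, was at 39.1, 17.4 and 20.3 CPM on beads and 73.8, 78.7 and 93.3 CPM in the supernatant, lower on beads in each pool (log2 fold change -1.77, SE 0.21, edgeR adjusted p = 7.31e-05). Hcrt, the gene of the orexins, was at 49, 17.5 and 14.8 CPM on beads and 47.1, 35.4 and 41.7 CPM in the supernatant; its bead level in pool 1 was not below its supernatant, and the log2 fold change of -0.81 (edgeR adjusted p = 0.0114) became -1.25 without pool 1 and was no longer called without pool 3 (adjusted p = 0.0823). Trh, the gene of thyrotropin-releasing hormone, did not pass, at 42.4, 35.4 and 38.1 CPM on beads and 31.2, 36.6 and 35.7 CPM in the supernatant (log2 fold change 0.16, adjusted p = 0.199).

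Among genes of pituitary-directed and posterior pituitary hormones, 3 of 11 were higher and 5 lower. Without pool 1 these were 3 and 7, and in the fit without the pool as a block 3 were higher and 1 was lower. The count of higher genes is near the share of all genes, of which 29.4% were higher and 29.0% lower. Crh, the releasing hormone of the stress axis, was at 15.2, 13.2 and 16 CPM on beads and 4.24, 5.37 and 5.16 CPM in the supernatant (2.98-fold higher). Oxt, the oxytocin gene, was at 46.2, 11.6 and 12 CPM on beads and 69.1, 45.7 and 55.7 CPM in the supernatant (log2 fold change -1.57, SE 0.25, edgeR adjusted p = 4.76e-04), and Avp, the vasopressin gene, at 96.3, 32 and 24.8 CPM on beads and 91, 67.3 and 86.3 CPM in the supernatant (log2 fold change -0.92, SE 0.26, edgeR adjusted p = 0.0129). For both, the bead library of pool 1 was the highest of the 3, and for Avp it was above its own supernatant. Without pool 1 the log2 fold changes were -2.10 and -1.43, and without pool 3 the call on Avp was lost (adjusted p = 0.0813).

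Genes of the leptin receptor pathway were more often higher than lower. Of 21 tested genes 10 were higher, 4 lower and 7 did not pass, where 29.4% of all genes were higher and 29.0% lower. The counts were 9 higher and 1 lower without the block, 9 and 7 with library totals as the scaling and 10 and 6 without pool 1. Irs4, an insulin receptor substrate of hypothalamic neurons, was the highest, at 299, 441 and 447 CPM on beads and 54.8, 71.9 and 73.3 CPM in the supernatant (5.89-fold; log2 fold change 2.56, SE 0.068, edgeR adjusted p = 1.35e-08). Stat3, the transcription factor that LepRb activates, was at 147, 176 and 177 CPM on beads and 55.9, 65.6 and 59.8 CPM in the supernatant (2.76-fold; log2 fold change 1.46, SE 0.066, edgeR adjusted p = 3.59e-07), and Socs3 at 6.38, 5.2 and 6.55 CPM on beads and 2.17, 2.2 and 2.16 CPM in the supernatant (2.76-fold). Stat3 overlaps Stat5a on the other strand. Lower on beads were Socs2, another SOCS protein (-0.42), Pik3r1 and Pik3ca, subunits of phosphoinositide 3-kinase (-0.38 and -0.34), and Jak2, named after its value was seen (-0.23); the calls on Socs2 and Jak2 were lost without pool 2 (adjusted p = 0.228 and 0.163). Genes known to respond to leptin included Serpina3n, a secreted protease inhibitor, at 147, 153 and 194 CPM on beads and 8.97, 10.2 and 15.8 CPM in the supernatant (14.3-fold; log2 fold change 3.84, SE 0.092, edgeR adjusted p = 7.52e-09), and Asb4, an imprinted gene of a SOCS-box protein, at 178, 241 and 287 CPM on beads and 20.6, 23.4 and 25.3 CPM in the supernatant (10.1-fold). Serpina3i, which neighbours Serpina3n in a cluster of near-identical genes, was at 1.46, 1.67 and 1.49 CPM on beads and 0.0884, 0.0253 and 0.12 CPM in the supernatant, and counts can be split between such copies. Of that list, 11 of 21 tested genes were higher and 3 lower, with a median of 0.44.

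Receptors of metabolic hormones and peptides were next. Of 33 tested, 17 were higher and 7 lower, with 9 and 1 at 2-fold or more. For all genes the shares were 29.4% and 29.0%, with 3.73% and 12.0% at 2-fold or more. Mc3r, a melanocortin receptor, was at 14.9, 20.1 and 21 CPM on beads and 3.14, 3.62 and 3.19 CPM in the supernatant (5.64-fold), and Calcr, the calcitonin and amylin receptor, at 54, 68.1 and 76.8 CPM on beads and 10.2, 13.3 and 16.4 CPM in the supernatant (5.00-fold). Ghsr, the ghrelin receptor, was at 7.07, 11.8 and 15.1 CPM on beads and 2.12, 3.7 and 2.81 CPM in the supernatant (3.9-fold). In these 3 genes bead levels were lowest in pool 1, where Lepr was lowest too. Lowest of the list were Ramp1, a partner protein of the calcitonin receptor family, with 11.9 and 23.6 CPM on average on beads and in the supernatant (log2 fold change -1.04), Insr, the insulin receptor, with 32.4 and 61.4 CPM (-0.93), Il6ra, a receptor of interleukin 6 (-0.89; not called without pool 3, adjusted p = 0.0609), and Lifr, a receptor that pairs with gp130 (-0.85). Of gonadal steroid and reproductive receptors 8 of 13 were higher and 2 lower, with 4 and 1 without the block and 5 and 3 with library totals as the scaling. Avpr1a, a vasopressin receptor, led that list (1.45), and Esr1, the oestrogen receptor alpha, was at 0.62.

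Of 10 genes that make a neuron GABAergic or glutamatergic, 1 was higher, 3 were lower and 6 did not pass. The count of lower genes is near the share of all genes, of which 29.4% were higher and 29.0% lower. Slc32a1, the vesicular GABA transporter, was at 114, 127 and 107 CPM on beads and 83.7, 115 and 108 CPM in the supernatant (log2 fold change 0.18, SE 0.086, edgeR adjusted p = 0.0904). Gad1 and Gad2, which make GABA, had log2 fold changes of -0.100 (adjusted p = 0.293) and -0.12 (adjusted p = 0.141). Slc17a6, the vesicular glutamate transporter of the hypothalamus and thalamus, was at 197, 315 and 332 CPM on beads and 198, 277 and 289 CPM in the supernatant (0.13, SE 0.067, adjusted p = 0.13). Of the 5 GABA genes, 1 was lower with TMM factors, 4 were with library totals as the scaling and 3 were without pool 1. Of the 5 glutamate genes, 1 was higher (2 without pool 1) and 2 lower, and with library totals 0 were higher and 3 lower. Slc17a7, the transporter of cortical neurons, was lower, with 54.4 and 108 CPM on average on beads and in the supernatant (-1.04).

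Of 10 genes of monoamine and acetylcholine transmission 5 were higher and 3 lower, where 29.4% and 29.0% of all genes were. The 5 are those of dopamine synthesis, storage and uptake, Th among them. Gch1, which makes the cofactor of tyrosine hydroxylase, was at 45.9, 40.2 and 46.6 CPM on beads and 5.66, 4.51 and 3.86 CPM in the supernatant (9.61-fold), and Slc6a3, the dopamine transporter, at 189.8, 421 and 364 CPM on beads and 28.4, 39.8 and 39.97 CPM in the supernatant (8.71-fold; log2 fold change 3.12, SE 0.11, edgeR adjusted p = 1.12e-07). Ddc, the decarboxylase that makes dopamine, was 6.71-fold higher, and Slc18a2, the vesicular monoamine transporter, was at 101, 220.4 and 251 CPM on beads and 33.6, 38.1 and 42.9 CPM in the supernatant (4.74-fold). Bead levels of Slc6a3 and Slc18a2 in pool 1 were well below those in pools 2 and 3, and still above all supernatants. Hdc (histamine synthesis), Chat and Slc5a7 (acetylcholine synthesis and choline uptake) were lower, at -1.26, -0.67 and -1.43. En1, a factor of the midbrain that is named for its rank, was at 37.7, 40.02 and 34.4 CPM on beads and 5.48, 3.29 and 4.36 CPM in the supernatant (8.7-fold), Foxa1 at 28.8, 30.2 and 31.6 CPM on beads and 4.68, 4.16 and 4.46 CPM in the supernatant (6.84-fold), and Chrna6, a nicotinic receptor subunit of dopamine neurons, at 26, 53.7 and 59 CPM on beads and 5.39, 7.55 and 6.52 CPM in the supernatant (6.98-fold). Pitx3 and Aldh1a1, named after their values were seen, had log2 fold changes of 2.88 and 1.53. Genes picked this way do not show how genes of dopamine neurons went as a set. Pitx3 was at 6.98, 4.14 and 3.78 CPM on beads and 1.15, 0.811 and 0.216 CPM in the supernatant. Its bead level was highest in pool 1, where those of Slc6a3, Slc18a2 and Chrna6 were lowest. Aldh1a1 was at 217, 322 and 297 CPM on beads and 96.8, 95.5 and 93.1 CPM in the supernatant. The labels call the tissue hypothalamus, and whether the blocks held midbrain was not tested.

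Listed genes of the arcuate, ventromedial and dorsomedial nuclei were mostly higher, where 29.4% of all genes were higher and 29.0% lower. The ventromedial and dorsomedial lists hold other genes beside transcription factors, such as Cbln1 and Npvf. Of 13 arcuate factors 10 were higher and 1 lower (10 and 2 without pool 1). Tbx3, a T-box factor of the arcuate nucleus, was at 39.1, 44.4 and 42.4 CPM on beads and 4.15, 3.47 and 4.2 CPM in the supernatant (10.7-fold), Otp, a homeobox factor, at 184, 136 and 150.2 CPM on beads and 33.2, 30.00 and 29.6 CPM in the supernatant (5.03-fold), and Six6 and Bsx were 3.98-fold and 3.73-fold higher. Onecut2 was the 1 lower gene, with 4.16 and 15 CPM on average on beads and in the supernatant (-1.85). Nr5a1, which encodes SF-1 of the ventromedial nucleus, was at 40.4, 47.6 and 42.3 CPM on beads and 4.24, 4.26 and 3.67 CPM in the supernatant (10.8-fold; log2 fold change 3.43, SE 0.11, edgeR adjusted p = 4.46e-08), and 7 of the 10 genes of that nucleus were higher and 3 lower (Fezf2 lowest, -1.08). In the dorsomedial list 9 of 10 were higher, and the remaining gene, Npvf (RFamide peptides), had a log2 fold change of -0.38 (adjusted p = 0.364). Its leading genes were Tbx19, a T-box factor, at 6.25, 5.72 and 6.07 CPM on beads and 0.574, 0.253 and 0.528 CPM in the supernatant (13.7-fold), and Gsx1, a homeobox factor, at 20.9, 18.1 and 14.8 CPM on beads and 1.06, 1.19 and 1.51 CPM in the supernatant (13.7-fold). Hmx2 and Hmx3, related homeobox factors, were at 2.30 and 2.16 on the log2 scale. Gsx1, Otp, Hmx2 and Hmx3 are also on a list of paraventricular, suprachiasmatic and preoptic factors. Of its 14 tested genes 5 were higher and 4 lower, with a median of 0.045. Tbx19 is also on a list of pituitary markers, where 1 of 6 tested genes was higher and 2 lower. These genes thus do not mark 1 region alone.

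The rest of the 20 highest-ranked genes, among those with a mean of at least 2 CPM and a symbol other than a gene model name, were on none of the lists above. Krt90, a keratin gene, was at 29.1, 27.9 and 23.3 CPM on beads and 1.77, 1.93 and 2.01 CPM in the supernatant (13.8-fold). Cited1, a transcriptional co-regulator, was at 161, 125 and 112 CPM on beads and 15.2, 11.5 and 11.3 CPM in the supernatant (10.4-fold). Ucn, the gene of urocortin, was at 15.4, 2.34 and 7.54 CPM on beads and 0.574, 0.329 and 0.575 CPM in the supernatant (14.3-fold; log2 fold change 3.84, SE 0.30, edgeR adjusted p = 6.04e-06), with bead pool 1 highest, pool 2 lowest and all 3 above the supernatants. Tbx3os2, a noncoding gene beside Tbx3, was at 5.1, 5.04 and 3.97 CPM on beads and 0.619, 0.456 and 0.24 CPM in the supernatant (11.3-fold).

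Genes of premammillary, mammillary and lateral areas went both ways, with 9 of 16 higher and 5 lower, where 29.4% and 29.0% of all genes were. Foxa1, Foxa2, Nkx2-4 and Lmx1b had log2 fold changes of 2.77, 2.32, 2.25 and 2.12, while Lhx6, Sim1, Lef1 and Lhx8 were lower (-1.11, -0.86, -0.83 and -0.79). Markers of neighbouring regions were mostly lower. In the thalamus list 9 of 11 genes were lower and 1 was higher (9 and 2 without pool 1), with a median of -0.70. Rora, a nuclear receptor of thalamic neurons, was lowest (-1.27); the higher gene, Cbln1, is also on the ventromedial list. In the list of striatum and cortex 9 of 14 were lower and 1 higher (Drd2, a dopamine receptor that dopamine neurons also use, 0.71), and Adora2a, an adenosine receptor of striatal neurons, was lowest, at 15.4, 8.99 and 6.15 CPM on beads and 30.05, 37.2 and 21.8 CPM in the supernatant.

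Glial transcripts were lower on beads, though every marker was still counted there. All 15 astrocyte markers were lower, where 29.0% of all genes were, with a median log2 fold change of -1.15. Aqp4, the water channel of astrocyte end-feet, was at 25.8, 19.3 and 26.1 CPM on beads and 55.1, 57.2 and 69.7 CPM in the supernatant (-1.36). All 15 oligodendrocyte markers were lower, with a median of -1.64. Ermn, a cytoskeletal protein of myelinating cells, was at 67.7, 39.9 and 49.4 CPM on beads and 155, 184 and 192 CPM in the supernatant (log2 fold change -1.79, SE 0.16, edgeR adjusted p = 1.11e-05). Of precursors of these cells 9 of 9 markers were lower, and so were 14 of 15 microglial markers, and all 15 without pool 1. Csf1r, a receptor that microglia need, was at 9.63, 4.59 and 3.83 CPM on beads and 17.2, 20.5 and 17.6 CPM in the supernatant (-1.72). The summed astrocyte markers were 1905, 1304 and 1311 CPM on beads and 2425 to 2526 CPM in the supernatant, with bead pool 1 highest of the 3, as for oligodendrocytes. Without pool 1 the medians were -1.35 and -1.92.

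**Figure D3:**
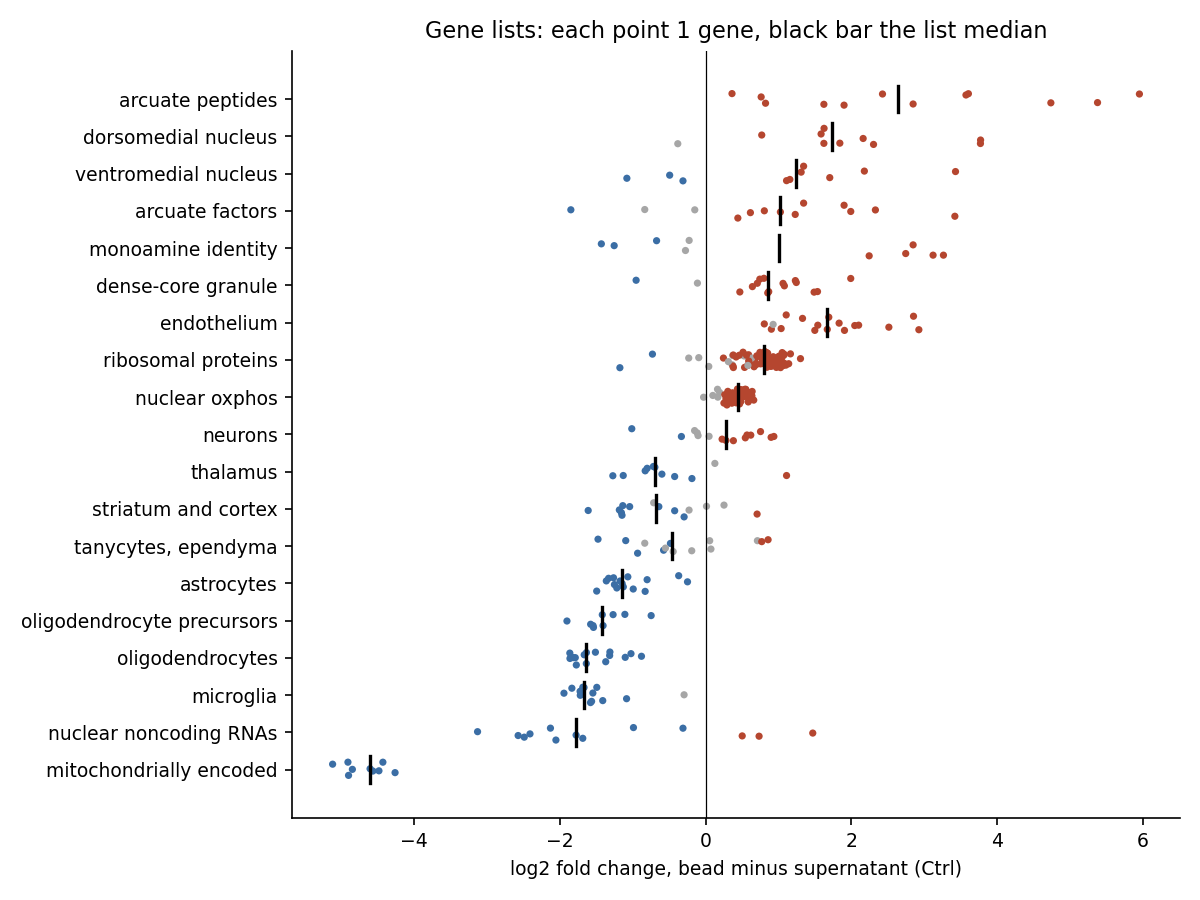
Log2 fold change of bead over supernatant in Ctrl (horizontal axis) for the genes of 19 lists; each point is 1 tested gene, red where higher and blue where lower at an adjusted p under 0.05 and grey otherwise, with a black bar at the list's median; points are spread vertically only to separate them. Arcuate peptides and endothelial markers lie to the right, glial markers to the left, and mitochondrially encoded genes farthest left.

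Endothelial markers went the other way from every glial list. Of 17 tested genes 16 were higher and the other, Emcn, had a log2 fold change of 0.93 (adjusted p = 0.0572), with a median log2 fold change of 1.67; without pool 1 all 17 were higher and the median was 1.96. Abcb1a, a drug efflux pump of the blood-brain barrier, was at 4.8, 9.67 and 16.4 CPM on beads and 1.24, 1.22 and 1.49 CPM in the supernatant (7.6-fold; log2 fold change 2.93, SE 0.25, edgeR adjusted p = 9.97e-06). Flt1, a receptor of vascular endothelial growth factor, was at 18.5, 22.1 and 48.8 CPM on beads and 4.99, 4.76 and 4.99 CPM in the supernatant (5.72-fold), and Tie1, an endothelial receptor kinase, at 4.2, 3.5 and 7.56 CPM on beads and 0.928, 0.507 and 0.695 CPM in the supernatant (7.23-fold). In each of these 3 genes bead pool 3 was the highest library and no supernatant reached a bead library. The summed markers stood at 167, 189 and 306 CPM on beads and at 78.3 to 79.7 CPM in the supernatant. Markers of pericytes and smooth muscle did not follow: 3 of 10 were higher, 1 was lower and 6 did not pass, with a median of 0.088. The count of higher genes is near the share of all genes, of which 29.4% were higher and 29.0% lower. With library totals as the scaling 2 were higher and 1 lower, and without the block 2 and 0. Of tanycyte and ependymal markers 2 of 14 were higher and 5 lower. Lower were also 6 of 9 meningeal fibroblast markers, 4 of 6 choroid plexus markers and 5 of 5 red blood cell genes, and the others of these lists did not pass. Whether endothelial cells carry the tag was not tested.

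General neuronal markers were more often higher than lower. Of 15, 9 were higher and 2 lower, where 29.4% and 29.0% of all genes were, with a median of 0.28. The counts were 9 and 5 without pool 1 and 7 and 1 without the block. With library totals as the scaling they were 7 and 5, with a median of 0.13. Uchl1, Gap43 and Tubb3 were highest (0.94, 0.90 and 0.75), and Map2, a dendritic protein, was lowest, at 356, 598 and 598 CPM on beads and 774, 1188 and 1141 CPM in the supernatant (-1.01). The machinery for peptide secretion was more clearly enriched. Of 16 genes of dense-core granules 14 were higher and 1 lower, with a median of 0.86. Resp18, a granule protein, was at 594, 718 and 682 CPM on beads and 157, 168 and 175 CPM in the supernatant (3.98-fold), and Scg2, which encodes secretogranin II, at 695, 1213 and 1175 CPM on beads and 258, 399 and 434 CPM in the supernatant (2.81-fold). The lower gene was Syt7, a synaptotagmin (-0.95). Of 14 processing enzymes 9 were higher and 1 lower. Pcsk1, which cleaves POMC, was at 46.2, 87.2 and 118 CPM on beads and 23.7, 35.5 and 38 CPM in the supernatant (2.49-fold), and Pam, which amidates peptides, was 2.47-fold higher, while Cpd, a carboxypeptidase, was lower (-0.46). Of 26 ER chaperones and stress genes, 20 were higher and 3 lower (without the block 14 were higher), led by Sec61b, Hspa5 and Pdia3 (1.19, 1.07 and 1.04).

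Channel and fast receptor subunits were more often lower than higher. Of 38 potassium channel subunits 7 were higher and 17 lower, and of 30 calcium, sodium and HCN channel subunits 4 and 15 (8 and 15 without pool 1). Of all genes 29.4% were higher and 29.0% lower. Kcnj10, the potassium channel of glia, was the lowest of the first list (-1.68), and Kcna5 and Kcnj5 were the highest (1.36 and 1.24). Of 40 GABA and glutamate receptor subunits 9 were higher and 17 lower, or 4 and 11 without the block. Gabre and Gabrq, the epsilon and theta subunits of GABA-A receptors, which the hypothalamus is known for, were at 24, 41.2 and 46.6 CPM on beads and 8.57, 10.8 and 14.6 CPM in the supernatant and at 70.7, 129 and 134 CPM on beads and 33.1, 42.9 and 48.6 CPM in the supernatant, 3.27-fold and 2.62-fold higher. The lowest were Grin2c, Grm3, Gabrd and Grin2a (-1.20, -1.15, -1.11 and -1.05). Of 35 axon guidance genes 7 were higher and 17 lower, or 3 and 7 without the block, and Ntn1, which encodes netrin-1, was the highest (1.16). Exon length moved with these values. Over the 15041 protein-coding genes Spearman's rho between exon length and log2 fold change was -0.30, a description across genes of the same 6 libraries, and the median log2 fold change went from 0.35 in the 3009 shortest of them to -0.29 in the 3008 longest. Median exon length was 5790.5 bases in the potassium channel list and 6672 in the receptor list, against 4434 over all protein-coding genes; its part in the lists' values was not tested.

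Short, abundant housekeeping transcripts were on the other side. Of 74 cytosolic ribosomal protein genes 63 were higher and 2 lower (63 and 1 without pool 1), with a median of 0.81 and a median exon length of 1835 bases. Rpl37 was highest (1.30) and Rpl5 lowest, with 1.79 and 3.98 CPM on average on beads and in the supernatant (-1.18). Many of these genes have near-identical pseudogenes that can take their reads, so single members are uncertain. Rpl10a, the untagged form of the tagged protein, was at 7.88, 4.98 and 4.77 CPM on beads and 8.75, 5.35 and 4.87 CPM in the supernatant (-0.095, adjusted p = 0.575), and how reads were shared between it and the tag is not given in the sources used here. Of 52 nuclear genes of oxidative phosphorylation 47 were higher, by a log2 fold change of at most 0.66, and the other 5 did not pass; with library totals 41 were higher and 1 was lower.

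Transcripts made inside mitochondria had the lowest median of all lists. All 9 tested genes were lower (the other 6 of the list had too few counts), with a median log2 fold change of -4.61 and of -5.55 without pool 1. mt-Cytb, the gene of cytochrome b, was at 338, 26.4 and 27.7 CPM on beads and 2191, 1966 and 2044 CPM in the supernatant (log2 fold change -5.12, SE 0.66, edgeR adjusted p = 1.16e-04), and its log2 fold change was -6.21, -4.43 and -4.42 without pools 1, 2 and 3. mt-Co1, a cytochrome oxidase subunit, was at 336, 44.1 and 61 CPM on beads and 2209, 2033 and 2113 CPM in the supernatant (-4.48; -5.31 without pool 1). Of 13 tested long noncoding RNAs of the nucleus or of host genes, 10 were lower and 3 higher. Meg3, an imprinted noncoding RNA, was at 1214, 349 and 406 CPM on beads and 5965, 4498 and 4270.2 CPM in the supernatant (log2 fold change -3.13, SE 0.22, edgeR adjusted p = 3.39e-06), Snhg11 at 579, 221 and 275 CPM on beads and 2318, 1539 and 1484 CPM in the supernatant (-2.41) and Malat1 at 84.7, 40.9 and 56.5 CPM on beads and 291, 225 and 217 CPM in the supernatant (-2.06). The 3 higher ones were Gas5 and Snhg1 (0.73 and 0.50), host genes of small nucleolar RNAs, and Xist, the noncoding RNA of the inactive X chromosome, at 26.6, 17.7 and 68.1 CPM on beads and 13.2, 9.17 and 13.5 CPM in the supernatant (1.47). Of the 20 genes with the lowest log2 fold change under the same limits on level and name, 12 are mitochondrially encoded, 3 of them tRNA genes. The others were Meg3, Ftx, a noncoding RNA of the X inactivation centre (-2.97), Mir124a-1hg, the host transcript of a neuronal microRNA (-2.87), the gene model Cdr1 (-2.93), and Sbsn, Thpo, Ubap1l and Cdh19 (-2.87, -2.73, -2.67 and -2.66; Thpo -3.43 without pool 1). Cdh19 encodes a cadherin of glial cells. Cdr1 was at 2.95, 3.21 and 3.33 CPM on beads and 21.2, 28.7 and 23.2 CPM in the supernatant. Over all 2311 tested genes of GENCODE's long noncoding types 140 were higher and 890 lower, against 5079 and 4224 of 15041 protein-coding genes, and the medians were -0.58 and 0.038. Across all 18036 tested genes Spearman's rho between mean CPM and log2 fold change was 0.29. The part of level in this contrast was not tested.

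**Figure D4:**
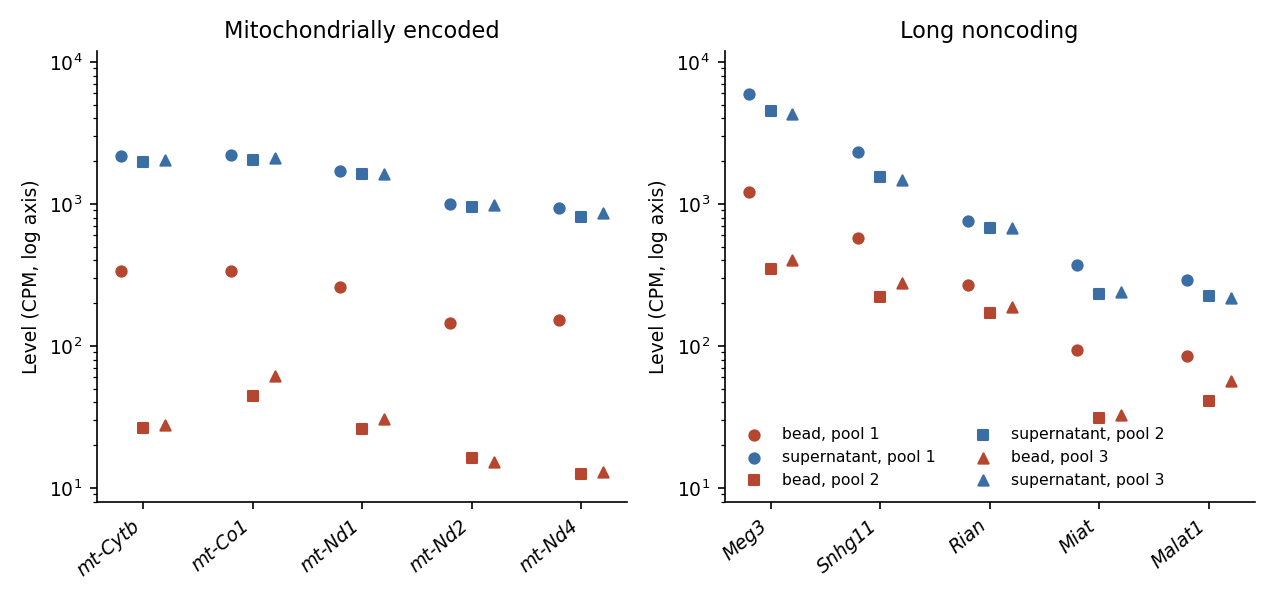
Levels (CPM, log axis) of 5 mitochondrially encoded genes (left) and 5 long noncoding RNAs (right) in each Ctrl library, red on beads and blue in the supernatant, with a symbol per pool. Bead pool 1 lies between the other bead libraries and the supernatants for each of these 10 genes.

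Imprinted genes were mostly enriched. Of 24 protein-coding ones 18 were higher and 3 lower, with 7 and 1 at 2-fold or more and a median of 0.78. Behind Asb4 and Calcr, Dlk1, a Notch-related membrane protein, and Plagl1, a zinc finger factor, were 3.66-fold and 3.00-fold higher. Rtl1 was lowest (-1.07), and it overlaps microRNA genes on the other strand. Of immediate early genes, which mark recent activity, 7 of 18 were higher and 5 lower, where 29.4% and 29.0% of all genes were. Without the block 4 were higher and 2 lower, where 3735 and 3829 of all 18036 genes were. These counts are not read as a result about the list. Nr4a2, also a factor of dopamine neurons, was highest, at 49.8, 65.5 and 66.7 CPM on beads and 16.5, 18.8 and 15.8 CPM in the supernatant (3.56-fold), and Npas4, a factor induced by neuronal activity, was lowest, at 4.75, 1.7 and 0.772 CPM on beads and 11.6, 6.49 and 6.11 CPM in the supernatant (-1.97). Of 6 TRPC channels 3 were higher and 2 lower, or 2 and 1 without the block, with Trpc6 highest at 1.36. Of 13 BBSome genes, which carry receptors to cilia, 4 were higher and 3 lower, near the shares of all genes. Without the block 3 BBSome genes were higher and 1 was lower.

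The ratio of bead to supernatant was also formed in the 6 Stat3KO libraries, where 4290 of 18107 genes (23.7%) were higher and 4709 (26.0%) lower on beads. The test of the difference between the 2 ratios had the 6 pools as blocks. It called 59 of 19122 genes: 4 with a higher ratio in Ctrl (0.0209%) and 55 with a lower one (0.288%), while 747 were at an unadjusted p under 0.05. With the pools numbered 1, 2 or 3 left out in both genotypes, the counts were 21 and 116, 2 and 33, and 2 and 23. Pomc had a log2 ratio of 5.38 in Ctrl and 4.15 in Stat3KO (difference 1.22, SE 0.11, edgeR adjusted p = 1.83e-04). It was called in every setting run. Cartpt had 3.61 and 2.12 (difference 1.47, adjusted p = 1.66e-05), and was not called without the block (adjusted p = 0.117). Serpina3n had 3.84 and 2.66 (difference 1.16, adjusted p = 0.00358; 0.438 without the block, 0.215 without pools 2 and 0.0743 without pools 3). Nts had 2.43 and 1.43 (difference 0.98, adjusted p = 0.0272; 1.00 without the block, 0.243 without pools 2 and 0.277 without pools 3). Npy was enriched less in Ctrl than in Stat3KO, at 4.74 against 5.63 (difference -0.90, adjusted p = 0.0105; 1.00 without the block, 0.0926 without pools 2 and 0.245 without pools 3). For Agrp, at 5.95 and 6.13, the difference did not pass (adjusted p = 1).

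Among genes with a mean of at least 2 CPM over the 12 libraries and a symbol other than a gene model name, the 10 largest differences of the other sign were those of Isg15, Iigp1, Ifit1, Bst2, Gbp3, Ifi47, Rtp4, Serpina3f, Irgm2 and Oasl2, most of them known as interferon-induced genes. Oasl2, of the antiviral oligoadenylate synthetase family, was at 5.44, 4.95 and 5.51 CPM on beads and 4.91, 3.78 and 3.33 CPM in the supernatant in Ctrl (log2 ratio 0.43, edgeR adjusted p = 0.0529) and had a ratio of 4.15 in Stat3KO. Bst2, which encodes tetherin, was at 1.28, 0.899 and 0.879 CPM on beads and 1.19, 0.71 and 0.767 CPM in the supernatant, with ratios of 0.21 in Ctrl and 4.58 in Stat3KO. Ifit1, which binds viral RNA, was at 2.18, 2.25 and 1.46 CPM on beads and 2.52, 2.99 and 2.59 CPM in the supernatant, with ratios of -0.49 and 4.03. In Ctrl these 3 genes were thus low in both fractions. The differences of 9 of the 10 genes were called in every setting run; that of Serpina3f was not called without the block (adjusted p = 0.0964), with limma-voom, with a minimum count of 50 or without pools 3 (1). Of 19 tested genes of the interferon list 5 were higher and 4 lower in Ctrl, where 29.4% and 29.0% of all genes were. The list's median was 0.12 in Ctrl and 2.80 in Stat3KO, and 16 of its genes passed the test of the difference. Of all 19122 genes in that test, 0.288% had a lower ratio in Ctrl and 0.0209% a higher one. The list was chosen with earlier results of these data known, so its count is no independent support. For markers of other cells the medians in Stat3KO were 1.5 for endothelium, -1.38 for oligodendrocytes and -1.01 for astrocytes, beside 1.67, -1.64 and -1.15 in Ctrl.

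**Figure D5:**
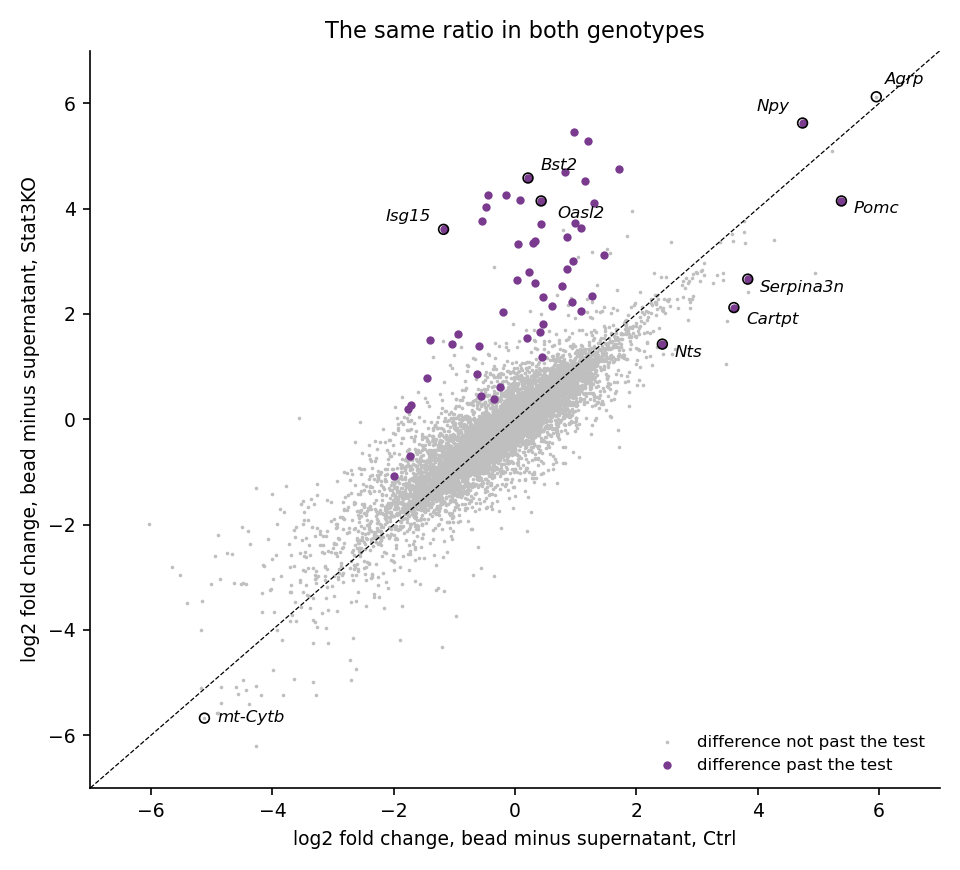
Log2 fold change of bead over supernatant in Ctrl (horizontal) and in Stat3KO (vertical) for genes tested in both; purple points passed the test of the difference, grey points did not, circled genes are named and the dashed line marks equal ratios. Cartpt, Pomc, Serpina3n and Nts lie below the line and Npy with interferon-induced genes such as Bst2 and Oasl2 above it; Agrp lies near it.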

How the data were processed

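The deposited files hold counts per gene, with no normalization by the authors; the aligner STAR 2.5.3a and the build mm10 are named per the submitters' processing notes, while the read counter, the annotation release and any filters stay unnamed: not given in the sources used here. Per the labels' protocols, samples reached an RIN of 8 or more before poly(A) selection, no strand-specific kit is named, and reads were 50 cycles long, with 4 libraries per lane. Of 52638 entries 52489 matched GENCODE M21 (GRCm38) and 2 are transgenes; 20938 were at 0 in all 6 Ctrl libraries.

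Counts were tested with edgeR 4.0.16 (R 4.3.3): genes kept by filterByExpr (count of at least 10, total of at least 15), TMM factors, a quasi-likelihood fit with the pool as a block and Benjamini-Hochberg adjustment over all genes. CPM are TMM-scaled. Alternatives were the fit with no replicate block, DESeq2 size factors, library totals, no filter, a minimum count of 50, DESeq2 1.42.0, limma-voom (limma 3.58.1), all 12 libraries in 1 fit and each pool left out. Fractions of 1 pool come from the same mice. Deviations from the group means correlated at 0.43, 0.22 and 0.26 within pools 1, 2 and 3, against at most 0.060 between pools. Deviations from a group mean cancel over its pools, so positive correlations within pools push those between pools down. That contrast is thus partly fixed in advance. Pools hold different mice, so the spread between pools is biological and technical together.

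The members and gene lists were chosen with earlier results of these data known, so counts of list members are no independent support. Named genes are a panel of 27, the 20 highest and 20 lowest log2 fold changes (same sign in 3 pools, mean CPM of at least 2), up to 4 genes at each end of a list (all genes of lists up to 13), the 15 highest per kilobase of exon among genes at least 4-fold higher, and up to 10 largest called differences between genotypes in each direction (mean CPM of at least 2 over the 12 libraries). Gene model names were left out of ranked genes. Of 165 named genes with a position, 54 overlap a gene on the other strand. Reads of Rpl10a may be shared with the tag.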

Additional observations from a re-analysis of the deposited data

Results flagged for a closer look

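The ratio of bead to supernatant differed between Ctrl and Stat3KO by the test of that difference (edgeR, 6 pools as blocks) for the genes given here, as log2 ratio in Ctrl minus log2 ratio in Stat3KO. It was higher in Ctrl for 4 genes, with differences of Nts 0.98, Serpina3n 1.16, Pomc 1.22 and Cartpt 1.47. It was lower in Ctrl for Npy, with -0.90, and for 10 further genes, with differences of Isg15 -4.80, Iigp1 -4.60, Ifit1 -4.53, Bst2 -4.39, Gbp3 -4.39, Ifi47 -4.37, Rtp4 -4.31, Serpina3f -4.14, Irgm2 -4.09 and Oasl2 -3.72.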

How the results depend on the processing

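For 167 genes named here, of which 147 passed, 1 called direction was reversed in the 11 alternatives, each changing 1 choice: Gnat1, whose counts lie mostly in pool 3, had a log2 fold change of -1.73 (edgeR adjusted p = 0.0211) and of 0.45 with DESeq2 (adjusted p = 0.836). With no replicate block, that is without the pairing by pool, 13 of these genes lost the call and the counts in Ctrl were 3735 higher and 3829 lower (660 and 1940 at 2-fold or more), 2669 higher and 3135 lower in Stat3KO, and 2 and 37 for the difference between genotypes. Without each pool in turn, Ctrl had 4177 to 5402 genes higher, 4088 to 5308 lower, 608 to 731 at least 2-fold higher and 1801 to 2363 at least 2-fold lower, and Stat3KO 2903 to 4242 higher and 3165 to 4625 lower. The difference between genotypes moved most: 2 to 21 genes with a ratio higher in Ctrl and 23 to 116 lower when a pool number was left out, 33 and 113 with no filter on low counts, and 9 genes higher with DESeq2. A minimum count of 50 gave 1431 genes at least 2-fold lower, with 14374 genes tested in place of 18036. Library totals as the scaling gave 469 and 2739 genes at 2-fold or more, with 1 call lost and 4 gained among named genes. The cause of the other shifts was not tested. With 3 pools, genes near the count filter rest on few counts.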

Other observations

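The photoreceptor and Y-linked genes given here were chosen after their values were seen. Photoreceptor transcripts were counted in pool 3. Gnat1, the rod transducin subunit, was at 0.343, 0.257 and 4.85 CPM on beads and 0, 0.228 and 24.4 CPM in the supernatant, and Sag, which encodes rod arrestin, was at 1.54, 2.06 and 3.89 CPM on beads and 0.619, 0.456 and 9.23 CPM in the supernatant. For both genes the supernatant of pool 3 was the highest library and its bead library the second highest.

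Y-linked genes were counted in all 3 Ctrl pools. Ddx3y, an RNA helicase gene of the Y chromosome, was at 49.8, 135 and 65.8 CPM on beads and 42.4, 81.3 and 47.1 CPM in the supernatant (log2 fold change 0.49), and Kdm5d, a histone demethylase gene of the Y chromosome, at 5.05, 14.8 and 4.79 CPM on beads and 14, 19.4 and 11.5 CPM in the supernatant (-0.99). Both Xist and these genes were counted in every pool, and the labels give no sex.

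Within the nitric oxide list, which the report does not describe, 2 of 5 genes were higher and 2 lower, where 29.4% and 29.0% of all genes were. Nos1, the neuronal nitric oxide synthase, had a log2 fold change of 0.31, and Gucy1a2 and Gucy1a1, subunits of its receptor guanylate cyclase, had -0.84 and -0.40. Of 12 receptors for somatostatin, opioids and galanin 5 were higher, led by Sstr5 and Sstr1 (1.33 and 1.10), and the other 7 did not pass. Of 36 receptors for monoamines and acetylcholine 10 were higher and 9 lower, near the shares of all genes. Without the block 6 were higher and 5 lower, where 3735 and 3829 of all 18036 genes were. These counts are not read as a result about the receptors. Chrm5, a muscarinic receptor, was next after Chrna6 (1.72), and Htr1f, a serotonin receptor, was lower (-1.40).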
